A study of Mus musculus with 21 samples.

Results

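Cish, Socs1, Socs2, Socs3, Pim1, Pim2 and Pim3 are 7 genes that cytokine signalling switches on and whose products then act back on that signalling or on cell survival. They were taken by name from the annotation of the arrays: probes that were not controls and whose RefSeq accession carried one of the 7 symbols, with the brightest probe kept for each gene. All 7 genes had a probe that entered the tests, out of 14315 genes with a tested probe. Each was measured on 21 one-colour Agilent expression arrays of cells sorted from C57BL/6 mouse bone marrow, 3 arrays for each of 7 fractions. No experimental treatment separated the fractions.

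The starting fraction was KLS, the lineage-negative cells with c-Kit and Sca1 on their surface, which hold stem cells and multipotent progenitors. On the erythroid side came PreMegE (CD150+ CD105-, without Fc gamma receptor I/II), then CFUe, then Ter119, the CD71+ Ter119+ erythroid cells. On the myeloid side came PreGM, then GMP (CD150-, with the Fc gamma receptor), then Mac1Gr1, the cells carrying both Mac1 and Gr1. The labels give CFUe and PreGM the same gate (CD150- CD105-, without the receptor) and write Sca1+ for the intermediate fractions, so the gates as labelled do not separate those 2 fractions. The ages and sexes of the mice, and whether mice were pooled, are not given in the sources used here. The arrays of a fraction are told apart only by a number, so p-values measure the spread between these arrays, which may be technical.

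Receptors for erythropoietin, G-CSF and many interleukins have no kinase of their own and signal through JAK kinases, which phosphorylate STAT transcription factors. STATs then enter the nucleus and induce a set of early target genes. Among them, CIS (the product of Cish) and the SOCS proteins bind phosphorylated receptors or JAKs through an SH2 domain and recruit an elongin and cullin 5 ubiquitin ligase through the SOCS box. SOCS1 and SOCS3 also block the JAK catalytic site. The PIM kinases are serine/threonine kinases that need no upstream kinase to be active, so that their amount largely sets their activity, and they favour survival, cell cycle entry and protein synthesis. In marrow, erythropoietin signals mainly through STAT5 and G-CSF strongly through STAT3.

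Because these genes are known STAT targets, their promoters were read for the letters that a STAT dimer prefers, TTCNNNGAA, on both strands. This motif reads the same on both strands. The RefSeq windows (GRCm38.p6), from 250 bases before to 50 bases after each transcription start, covered 6 of the 7 members, not Socs2, with 2 windows for Pim1. The motif stood in 8.30% of all 32851 such windows. Cish had 2 matches, at bases 1 to 9 and 12 to 20 counted from the start as base 1, and Socs3, on the minus strand, had 1 at positions -154 to -146. The windows of Socs1, Pim1, Pim2 and Pim3 had no match, and no member window held AGATAAG, the GATA factor motif, found in 3.04% of all windows, or the NF-kB motif searched, found in 0.155%, so no matches overlapped. A match is only a run of letters, and no binding was measured here. The stretches of Cish and Socs3 that hold the matches are printed below with the matches in capitals, beside the bases just before the start of Socs1 and of the upstream Pim1 window, shown because these genes moved with Socs3 in the data described below.
Cish, chr9:107296429-107296678, plus strand: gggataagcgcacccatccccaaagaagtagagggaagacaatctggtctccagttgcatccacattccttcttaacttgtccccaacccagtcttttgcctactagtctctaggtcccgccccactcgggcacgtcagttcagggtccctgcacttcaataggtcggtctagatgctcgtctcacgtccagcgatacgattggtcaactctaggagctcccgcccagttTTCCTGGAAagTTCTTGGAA
Socs3, chr11:117969367-117969616, minus strand: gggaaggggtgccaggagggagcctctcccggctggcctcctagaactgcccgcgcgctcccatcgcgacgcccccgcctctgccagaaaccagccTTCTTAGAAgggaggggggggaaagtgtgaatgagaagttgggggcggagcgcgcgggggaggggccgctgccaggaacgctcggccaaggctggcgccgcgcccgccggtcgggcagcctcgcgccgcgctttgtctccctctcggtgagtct
Socs1, chr16:10785537-10785636, minus strand: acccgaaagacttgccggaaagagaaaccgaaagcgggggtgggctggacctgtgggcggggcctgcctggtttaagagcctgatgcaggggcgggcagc
Pim1, chr17:29490685-29490784, plus strand: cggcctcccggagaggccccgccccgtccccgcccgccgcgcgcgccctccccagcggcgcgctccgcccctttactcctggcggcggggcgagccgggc

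Levels are given as log2 of the background-corrected signal minus the same array's 75th percentile, so a level of 0 is that percentile and a difference of 1 is 2-fold. Levels of different genes come from different probes and are not compared with each other. Between 56.4% and 77.4% of spots per array were well above background, no spot was saturated, and all 7 member probes were well above background on all 21 arrays. Erythroid transcripts were led by Ter119 (summed log2 level of 7 genes 12.3 to 12.7) and CFUe (5.89 to 6.25), but the Ter119 arrays carried granulocytic transcripts as strongly as Mac1Gr1 (12.2 to 12.5 against 12.3 to 12.4 for 10 genes), where the CFUe arrays had sums of 2.42 to 5.36. Macrophage transcripts (9 genes) summed to 4.73 to 6.17 in KLS and to between -1.07 and -0.51 in CFUe, where C1qa, C1qc, Vcam1 and Adgre1 did not rise clearly over background on any array. Sex-chromosome transcripts divided the arrays too: 4 Y-linked genes were well above background on every KLS, PreMegE and Ter119 array and on array 3 of CFUe and of PreGM, while the other CFUe and PreGM arrays and every GMP and Mac1Gr1 array had high Xist and no Y-linked gene above background. CFUe array 3 and PreGM array 3 thus stand apart from the other arrays of their fractions, and values without them are given where a call changes.

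A member was called changed at an adjusted p below 0.05 and at least 2-fold in limma's test, with Benjamini-Hochberg adjustment over 29532 probes. In bulk samples such as these, fewer cells of a type and less RNA per cell cannot be told apart. Over the 6 steps of the 2 lineages the members were called in 21 of 42 member-by-step results. At these steps between 8.64% (KLS to PreGM) and 57.2% (CFUe to Ter119) of all probes were called, so the pooled count has no single background. From KLS to PreMegE, 3 of 7 fell and none rose, where 8.86% of all probes fell, 3.55% rose and 12.4% were called in all. From PreMegE to CFUe, 4 fell and none rose, where 14.7% of probes fell and 9.96% rose (24.7% in all), and the median member difference was -1.06 where that of all probes was 0.12. From CFUe to Ter119, 5 rose and 1 fell, where 29.2% of probes rose and 28.0% fell (57.2% in all), with medians of 1.79 and 0.05. The 4 genes that fell into CFUe, namely Socs1, Socs2, Socs3 and Pim1, were among the 5 that rose from CFUe to Ter119. These 2 comparisons share the CFUe arrays with opposite signs, so part of this overlap is built in and nothing is read from it.

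On the myeloid side, 3 members fell from KLS to PreGM and none rose, where 6.53% of probes fell and 2.11% rose (8.64% in all). From PreGM to GMP only Socs3 was called, lower, where 6.36% of probes fell and 4.01% rose (10.4% in all). From GMP to Mac1Gr1, 3 rose and 1 fell, where 29.1% of probes rose and 27.6% fell (56.7% in all), so that the share of members called was close to the background. Socs1, Socs2 and Socs3 rose at the last step of both lineages and Pim3 fell at both. The Ter119 arrays, however, carried granulocytic transcripts as strongly as Mac1Gr1. Of 10 granulocytic genes, 10 were called higher from CFUe to Ter119, where 29.2% of probes rose. From GMP to Mac1Gr1, 7 were called higher and 3 lower, where 29.1% of probes rose and 27.6% fell. The part of such transcripts in the changes of any member from CFUe to Ter119 was not tested. With scaling to the spike-in RNAs the median of all probes went from 0.05 to -1.33 for CFUe to Ter119 and from 0.17 to -1.86 for GMP to Mac1Gr1, and under it Socs2 was level from GMP to Mac1Gr1 (-0.01) and the myeloid rises of Socs1 (0.24) and Socs3 (0.64) were not called. Relative to the median of all probes, which a change of 1 factor per array leaves as it is by construction, the rises to Mac1Gr1 were 2.10 for Socs1, 1.85 for Socs2 and 2.50 for Socs3.

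**Figure D1:**
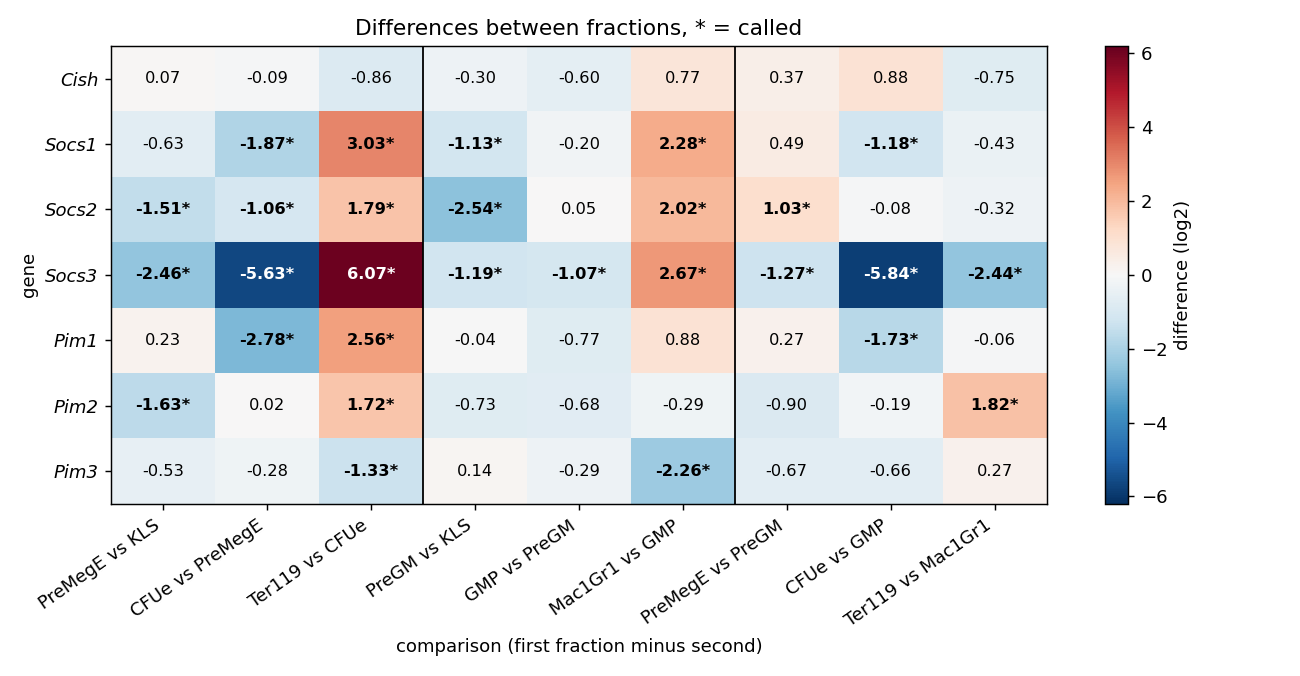
Log2 differences of the 7 members at the 6 steps and the 3 comparisons between lineages, with called values in bold with an asterisk. The column for PreMegE to CFUe holds 4 called falls (14.7% of all probes fell) and the column for CFUe to Ter119 holds 5 called rises (29.2% rose).

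Socs3, which inhibits receptors that signal through gp130 and the G-CSF receptor, had the widest range of the 7 members. It was lowest in CFUe and highest in Mac1Gr1 and KLS. Its levels on arrays 1, 2 and 3 were 5.09, 3.97 and 3.62 in KLS, 2.43, 1.59 and 1.28 in PreMegE, -4.17, -3.97 and -3.46 in CFUe, and 2.22, 2.19 and 2.22 in Ter119. All 3 CFUe arrays lay far below every array of the other 6 fractions. On the myeloid side the levels were 3.20, 3.26 and 2.65 in PreGM, 2.34, 2.01 and 1.57 in GMP, and 4.76, 4.61 and 4.56 in Mac1Gr1. The myeloid levels thus dipped in GMP, with no overlap between neighbouring fractions.

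Socs3 fell 5.51-fold from KLS to PreMegE (log2 difference -2.46, SE 0.34, adjusted p = 2.74e-05) and another 49.6-fold to CFUe (-5.63, SE 0.34, adjusted p = 1.03e-09). It then rose 67.4-fold to Ter119 (6.07, SE 0.34, adjusted p = 3.79e-11). On CFUe arrays 1, 2 and 3 the dimmest probe well above background lay at -4.53, -5.04 and -5.03, so Socs3 was near the floor there. The size of any Socs3 fold against CFUe is therefore less certain than its direction. The Ter119 arrays lay within the range of the PreMegE arrays. Array 3 of CFUe, the one with Y-linked transcripts like PreMegE and Ter119, was the highest of the CFUe arrays (-3.46) but far below every array of the other fractions. Within the single slides that held both fractions the differences were -6.39 for CFUe against PreMegE and 6.39 for Ter119 against CFUe. The granulocytic, macrophage, B cell and T cell lists moved the same way from CFUe to Ter119. In these lists 10 of 10, 8 of 9, 6 of 6 and 4 of 4 genes were called higher, where 29.2% of all probes rose. The part of these lists in the rise was not tested.

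Along the myeloid lineage Socs3 fell 2.28-fold from KLS to PreGM (-1.19, SE 0.34, adjusted p = 0.0160). It fell a further 2.10-fold into GMP (-1.07, SE 0.34, adjusted p = 0.0272) and rose 6.37-fold into Mac1Gr1 (2.67, SE 0.34, adjusted p = 1.54e-06). Both falls are less firm than the rise. The KLS to PreGM fall ended without KLS array 1 (-0.76), without PreGM array 3 (-0.99), with slide as a block (-0.92), with the class of sex-chromosome transcripts as a block (-1.18, adjusted p = 0.0625) and when KLS and PreGM were fitted without the other fractions. The PreGM to GMP fall ended without any 1 of 4 arrays (PreGM 1 or 2, GMP 2 or 3), with slide as a block (-0.86) and with spike-in scaling (-0.05). KLS array 1, the highest for Socs3, also had the highest macrophage sum (6.17). Against KLS, 8 of 9 macrophage genes were called lower in PreGM and 9 of 9 in PreMegE, where 6.53% and 8.86% of all probes were lower. The part of these cells in the Socs3 falls from KLS was not tested.

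Socs1, the inhibitor most tied to interferon and gamma-chain cytokine receptors, was likewise lowest in CFUe. Its levels were 0.01, -0.69 and -0.80 in KLS, -0.62, -1.29 and -1.48 in PreMegE, -3.11, -2.75 and -3.14 in CFUe, and 0.09, -0.04 and 0.04 in Ter119. The myeloid fractions gave -1.66, -1.63 and -1.57 in PreGM, -1.76, -1.80 and -1.91 in GMP, and 0.42, 0.45 and 0.50 in Mac1Gr1. Every Ter119 array stood above those of PreMegE and CFUe, and every Mac1Gr1 array above those of PreGM and GMP. Socs1 fell 3.66-fold from PreMegE to CFUe (-1.87, SE 0.21, adjusted p = 9.65e-07) and rose 8.16-fold to Ter119 (3.03, SE 0.21, adjusted p = 5.02e-10). It fell 2.18-fold from KLS to PreGM (-1.13, SE 0.21, adjusted p = 0.000785) and rose 4.85-fold from GMP to Mac1Gr1 (2.28, SE 0.21, adjusted p = 2.11e-08). The fall to PreGM dropped under 2-fold without KLS array 1 (-0.88). From PreGM to GMP the difference was -0.20 (SE 0.21, adjusted p = 0.533), and PreMegE against KLS gave -0.63, which passed the p threshold (0.0300) but not the fold.

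Socs2, which restrains growth hormone signalling, was highest in KLS. Its levels there were -0.77, -1.10 and -1.12, followed on the erythroid side by -1.92, -2.86 and -2.74 in PreMegE, -3.55, -3.36 and -3.81 in CFUe, and -1.48, -1.91 and -1.97 in Ter119. On the myeloid side they were -3.29, -3.07 and -4.27 in PreGM, -3.70, -3.59 and -3.19 in GMP, and -1.82, -1.35 and -1.25 in Mac1Gr1. KLS lay above the arrays of the other 6 fractions, and Socs2 was low in 3 progenitor fractions, not only in CFUe. It fell 2.85-fold from KLS to PreMegE (-1.51, SE 0.29, adjusted p = 0.000839) and 5.83-fold from KLS to PreGM (-2.54, SE 0.29, adjusted p = 9.95e-06). The macrophage list moved the same way, with 9 of 9 genes called lower in PreMegE and 8 of 9 in PreGM (median differences -6.27 and -6.48). Of all probes, 8.86% and 6.53% were lower. The part of the macrophage list in these falls was not tested. Socs2 rose 3.45-fold from CFUe to Ter119 (1.79, SE 0.29, adjusted p = 3.07e-05, not called with spike-in scaling at 0.41) and 4.07-fold from GMP to Mac1Gr1 (2.02, SE 0.29, adjusted p = 7.73e-06). The 2.09-fold fall from PreMegE to CFUe (-1.06, SE 0.29, adjusted p = 0.00591) came out under 2-fold without PreMegE array 1 (-0.77), without CFUe array 3 (-0.94) and with quantile scaling (-0.83).

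**Figure D2:**
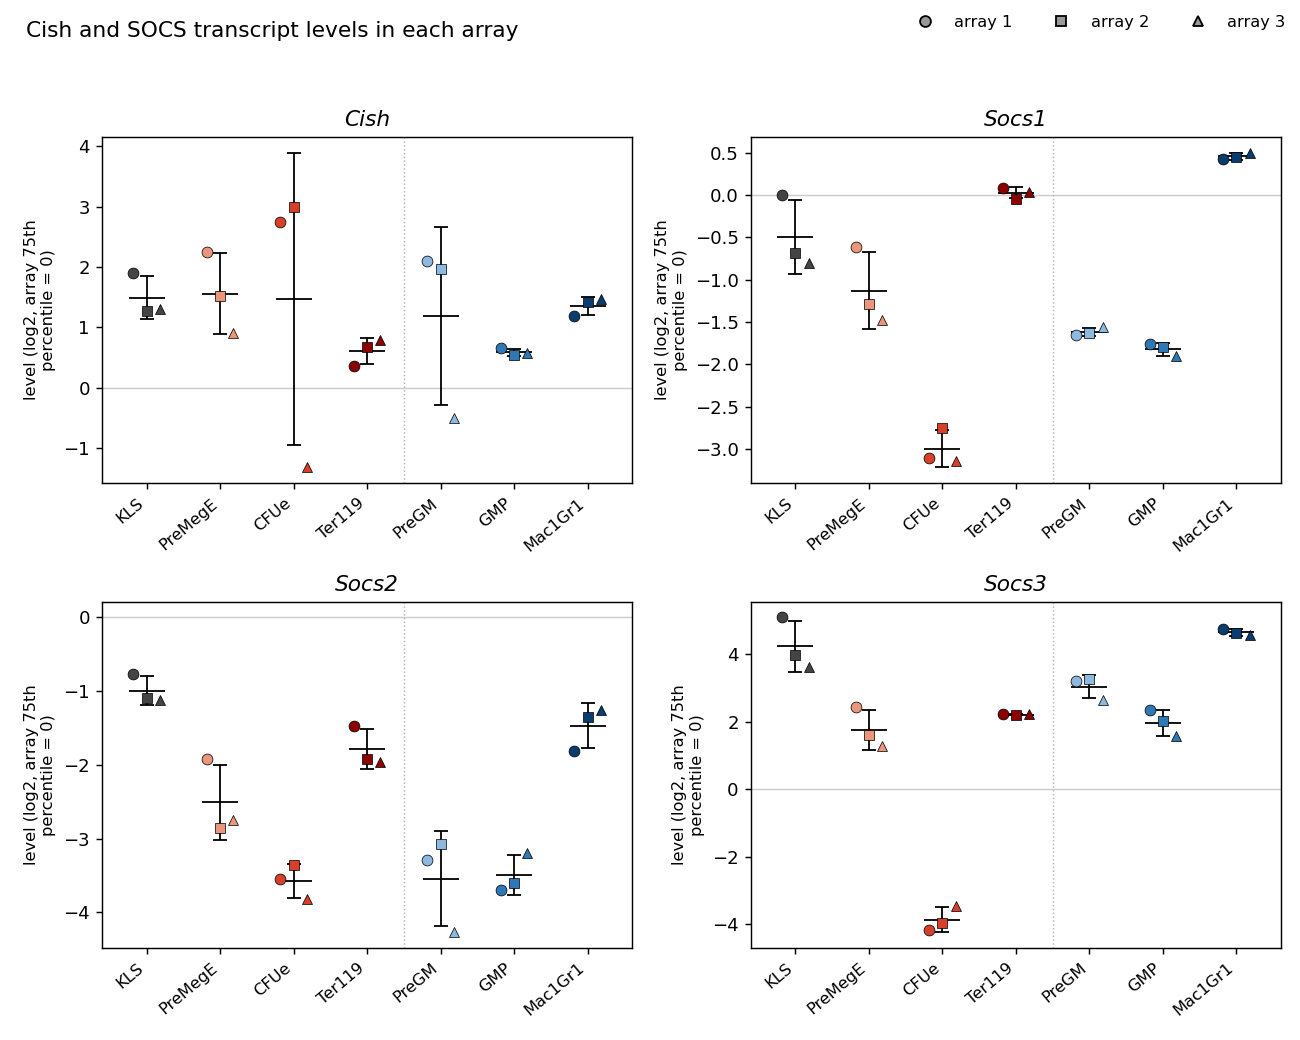
Log2 levels of Cish, Socs1, Socs2 and Socs3 relative to each array's 75th percentile, by fraction, with 1 point per array and lines for the mean and SD of 3 arrays. Socs3 and Socs1 have their lowest points in CFUe, and Cish has 1 low array in CFUe and 1 in PreGM.

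Cish, which is induced by STAT5 and binds the erythropoietin and interleukin receptors, was not called in any comparison between 2 fractions. Its levels were 1.90, 1.26 and 1.30 in KLS, 2.25, 1.51 and 0.91 in PreMegE, 2.74, 2.99 and -1.32 in CFUe, and 0.36, 0.67 and 0.79 in Ter119. In PreGM they were 2.10, 1.97 and -0.51, in GMP 0.65, 0.54 and 0.56, and in Mac1Gr1 1.18, 1.41 and 1.46. The 2 low values are those of CFUe array 3 and PreGM array 3, the arrays that differ from the rest of their fractions in sex-chromosome transcripts, and each lay over 2 log2 units below the other arrays of its fraction. The SE of a Cish difference was 0.84, about 4 times that of Pim1 or Pim3, so these arrays cannot separate fractions that differ by less than several fold: CFUe against PreMegE was -0.09 with a 95% interval from -1.87 to 1.70.

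Every Cish difference that used CFUe or PreGM depended on those 2 arrays. Without them, Cish was higher in CFUe than in PreMegE by 1.31 (adjusted p = 0.00151) and higher than in GMP by 2.28 (adjusted p = 9.98e-06), and fell by 2.26 from CFUe to Ter119 (adjusted p = 4.48e-06). Into GMP it then fell by 1.45 from PreGM (adjusted p = 0.00170). With the class of sex-chromosome transcripts as a block in the fit, CFUe against PreMegE was instead -2.33 (adjusted p = 0.000158) and Ter119 against CFUe 1.38 (adjusted p = 0.00495). For these 2 comparisons the treatments of the same arrays thus gave opposite signs. For the other 2 they gave the same sign: with the block, CFUe against GMP was 2.01 (adjusted p = 0.000121) and GMP against PreGM -1.72 (adjusted p = 0.00130). Between the lineages, the difference of Cish without the 2 arrays was 2.76 at the second step (adjusted p = 9.56e-05) and -3.03 at the third (adjusted p = 1.07e-05), while with the block it was -0.61 and 0.61, neither called. Both fits were added after the arrays had been seen to differ, and no direction is drawn for Cish at these steps.

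Other genes also stood apart on the same 2 arrays. Nfkb2 was 1.70, 1.67 and -0.49 in CFUe and 1.62, 1.51 and -0.10 in PreGM, and Relb was 2.29, 2.22 and -2.93 in CFUe and 1.64, 1.29 and -1.98 in PreGM. Both encode subunits of the noncanonical NF-kB pathway. The neutrophil granule gene Ltf went the other way, with -3.99, -3.24 and -0.84 in CFUe and -3.79, -3.75 and -0.12 in PreGM. Nfkb2 and Relb were named because they are 2 of the 3 genes most correlated with Cish over the 21 arrays. Their agreement with Cish on these 2 arrays is thus largely built in. The part of these genes in the Cish level was not tested.

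**Figure D3:**
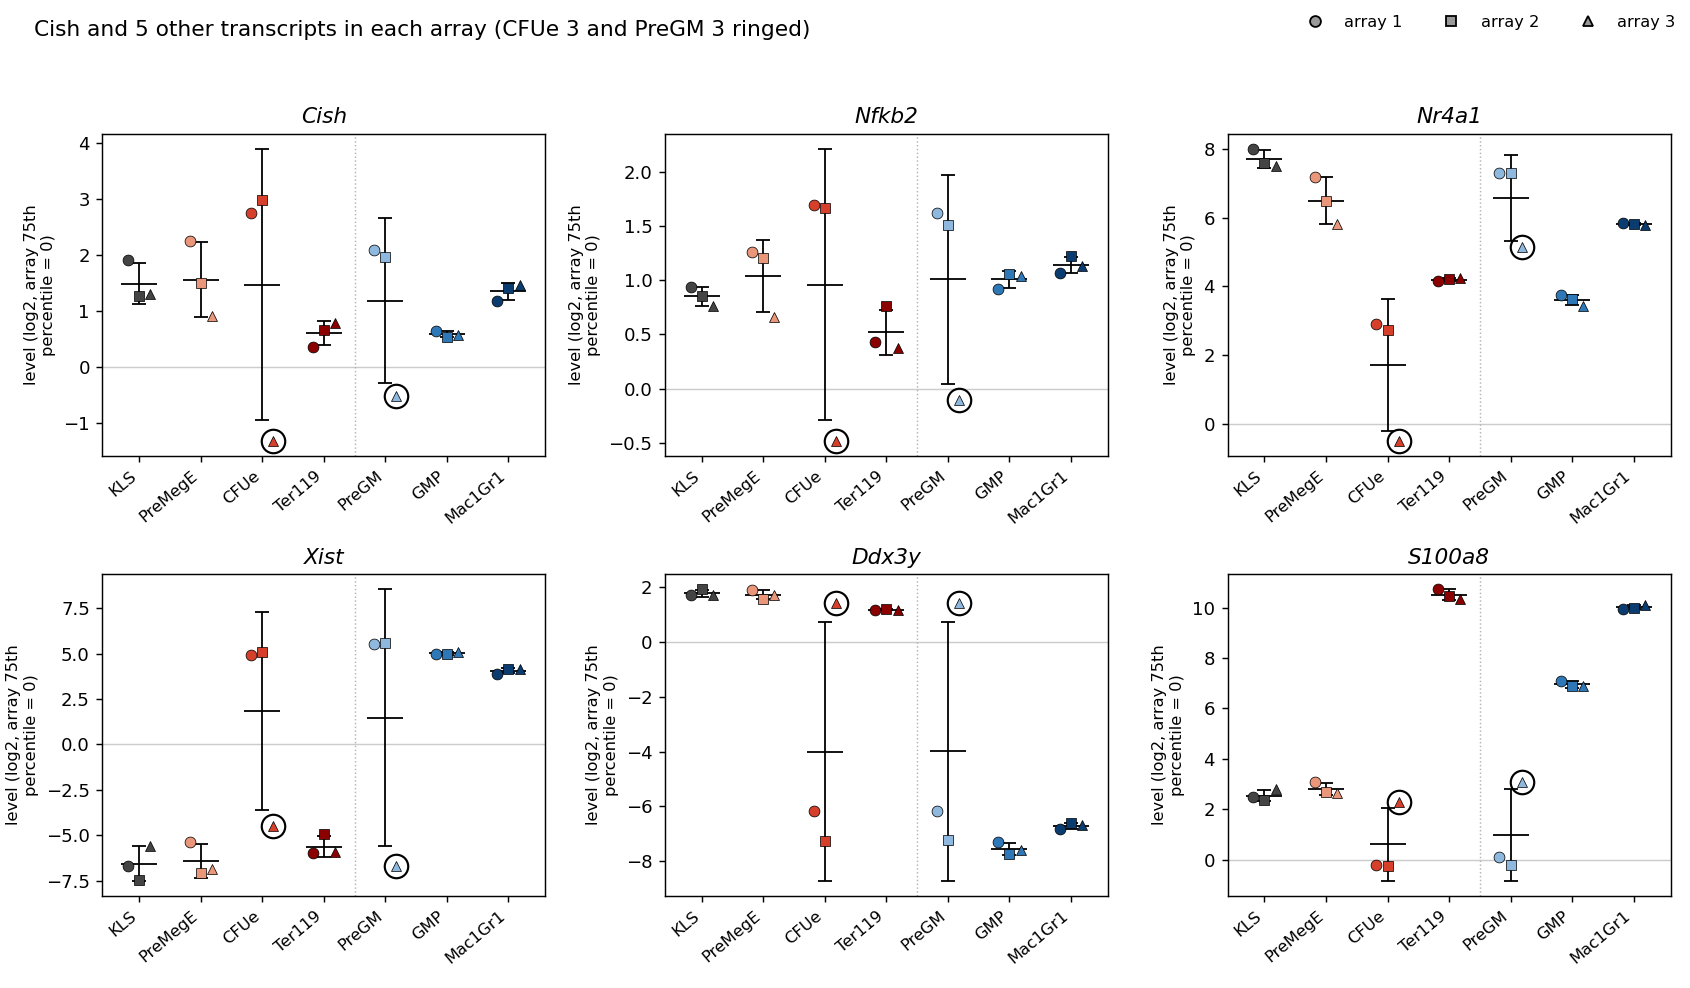
Log2 levels of Cish, Nfkb2, Nr4a1, Xist, Ddx3y and S100a8 on each of the 21 arrays by fraction, with lines for the mean and SD of 3 arrays and CFUe array 3 and PreGM array 3 ringed. The ringed arrays have the lowest 2 Cish values (-1.32 and -0.51), and unlike the other arrays of their fractions they have high Ddx3y and low Xist.

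Pim1, the most studied of the PIM kinases, was also lowest in CFUe. Its levels were 3.14, 2.88 and 2.85 in KLS, 3.57, 3.22 and 2.76 in PreMegE, 0.45, 0.60 and 0.17 in CFUe, and 2.69, 3.13 and 3.07 in Ter119. In PreGM, GMP and Mac1Gr1 they were 3.06, 3.07 and 2.61, then 2.20, 2.25 and 1.97, then 3.02, 3.03 and 3.01. The highest CFUe array lay over 1 log2 unit below the lowest array of any other fraction. Pim1 fell 6.86-fold from PreMegE to CFUe (-2.78, SE 0.19, adjusted p = 4.66e-09) and rose 5.88-fold to Ter119 (2.56, SE 0.19, adjusted p = 1.82e-09), with within-slide differences of -2.97 and 2.62. In the myeloid lineage GMP was below PreGM (-0.77, SE 0.19, adjusted p = 0.00632) and Mac1Gr1 above GMP (0.88, SE 0.19, adjusted p = 0.000501), each without overlap between the arrays but under 2-fold, and with spike-in scaling both turned (0.24 and -1.15). Against KLS, PreMegE differed by 0.23 and PreGM by -0.04, with 95% intervals from -0.17 to 0.64 and from -0.45 to 0.36.

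Pim2, whose gene is X-linked and which is known for sustaining protein synthesis and survival, was highest in Ter119 and KLS. Its levels were 0.39, 0.36 and 0.65 in KLS, -1.25, -1.06 and -1.17 in PreMegE, -1.23, -0.96 and -1.22 in CFUe, and 0.23, 0.86 and 0.67 in Ter119. On the myeloid side they were -0.26, -0.19 and -0.33 in PreGM, -0.93, -0.83 and -1.07 in GMP, and -1.42, -1.19 and -1.08 in Mac1Gr1. Pim2 was thus already low in PreMegE, while on the myeloid side the levels lay lower from each fraction to the next. It fell 3.08-fold from KLS to PreMegE (-1.63, SE 0.15, adjusted p = 2.72e-07) and rose 3.30-fold from CFUe to Ter119 (1.72, SE 0.15, adjusted p = 1.18e-08, not called with spike-in scaling at 0.34). B cell genes also rose from CFUe to Ter119 (6 of 6, where 29.2% of probes rose), as they did from GMP to Mac1Gr1 (6 of 6, where 29.1% rose). Their part in the Pim2 rise was not tested. Between PreMegE and CFUe Pim2 differed by 0.02, with a 95% interval from -0.29 to 0.34. The myeloid differences of -0.73 from KLS to PreGM (adjusted p = 0.00189) and -0.68 into GMP from PreGM (adjusted p = 0.00250, but 0.33 with spike-in scaling) passed the p threshold but not the fold. The arrays of CFUe and PreGM with and without Y-linked transcripts had nearly equal Pim2 levels, and its 3 probes gave the same direction wherever the brightest was called.

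Pim3, a PIM kinase known from energy metabolism and cell growth, was lowest in the most mature fraction of both lineages. Its levels were 1.46, 1.45 and 1.37 in KLS, 0.80, 1.10 and 0.80 in PreMegE, 0.64, 0.77 and 0.44 in CFUe, and -1.08, -0.48 and -0.57 in Ter119. In PreGM, GMP and Mac1Gr1 they were 1.81, 1.84 and 1.05, then 1.34, 1.45 and 1.05, then -1.14, -0.85 and -0.96. Every Ter119 and Mac1Gr1 array lay below every array of the other 5 fractions. Pim3 fell 2.51-fold from CFUe to Ter119 (-1.33, SE 0.20, adjusted p = 1.16e-05) and 4.79-fold from GMP to Mac1Gr1 (-2.26, SE 0.20, adjusted p = 1.63e-08). The first of these was just under 2-fold with the class of sex-chromosome transcripts as a block (-0.98, adjusted p = 0.000323).

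**Figure D4:**
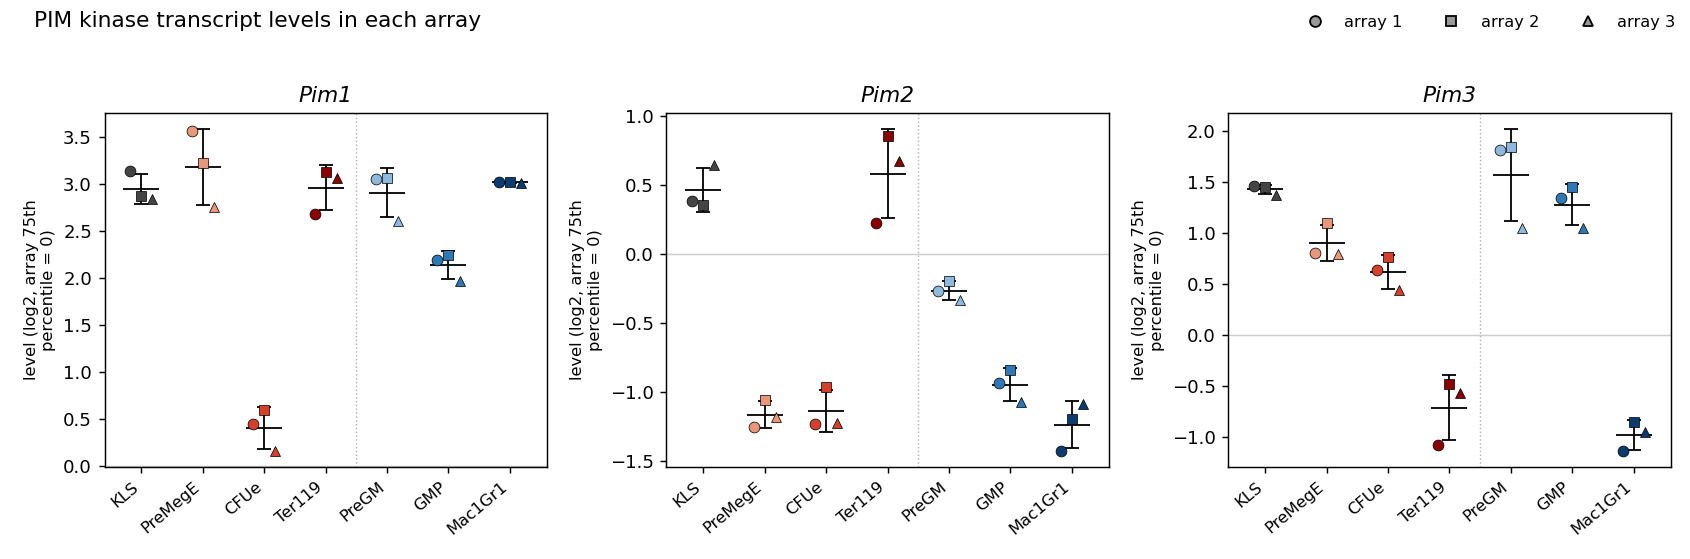
Log2 levels of Pim1, Pim2 and Pim3 relative to each array's 75th percentile, by fraction, with 1 point per array and lines for the mean and SD of 3 arrays. Pim1 is lowest in CFUe, Pim2 is high in KLS and Ter119, and Pim3 is low in Ter119 and Mac1Gr1.

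Fractions at the same stage of the 2 lineages were then compared directly, which asks where the erythroid and myeloid sides part. In PreMegE against PreGM, Socs2 was higher (1.03, SE 0.29, adjusted p = 0.0139) and Socs3 lower (-1.27, SE 0.34, adjusted p = 0.00908), 2 of 7 members where 5.81% of probes were higher and 6.23% lower (12.0% in all). The Socs2 difference ended without PreMegE array 1 (0.74), without PreGM array 3 (0.67) and with quantile scaling (0.98), and the Socs3 difference ended without PreMegE array 3 (-1.03, adjusted p = 0.0549) and with spike-in scaling (-1.12, adjusted p = 0.0925). In CFUe against GMP, 3 members were lower and none higher, where 14.2% of probes were lower and 12.1% higher (26.3% in all). Socs3 was lower by 57.2-fold (-5.84, SE 0.34, adjusted p = 2.10e-10), Pim1 by 3.33-fold (-1.73, SE 0.19, adjusted p = 7.88e-07) and Socs1 by 2.26-fold (-1.18, SE 0.21, adjusted p = 0.000127). In Ter119 against Mac1Gr1, Pim2 was higher by 3.53-fold (1.82, SE 0.15, adjusted p = 1.60e-08) and Socs3 lower by 5.41-fold (-2.44, SE 0.34, adjusted p = 7.56e-06), 2 of 7 where 22.0% of probes were higher and 19.9% lower (41.9% in all). Lymphocyte lists were also higher in Ter119, with 6 of 6 B cell genes (median 1.85) and 3 of 4 T cell genes (median 1.71) called, none lower. Their part in the Pim2 difference was not tested. Every array of Ter119 carried Y-linked transcripts and none of Mac1Gr1 did, so that class and fraction cannot be told apart here. With that class as a block the differences were 1.93 for Pim2 and -2.45 for Socs3. Only CFUe and PreGM held both classes, so the block rests on their arrays and cannot check this comparison.

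Whether a step differed between the lineages was tested as an interaction. At the second step (PreMegE to CFUe minus PreGM to GMP) it passed an adjusted p of 0.05 for 5 members, where 34.2% of all probes did. Socs3 changed by -4.57 more on the erythroid side (SE 0.48, adjusted p = 1.44e-06), Pim1 by -2.01 (SE 0.27, adjusted p = 2.25e-05) and Socs1 by -1.67 (SE 0.29, adjusted p = 0.000272). These are the members with the deepest falls into CFUe. Pim2 went the other way, by 0.71 (SE 0.21, adjusted p = 0.0153), with GMP below PreGM and CFUe close to PreMegE, and was -0.82 with spike-in scaling. At the third step (CFUe to Ter119 minus GMP to Mac1Gr1) it also passed for 5 members, where 55.0% of probes did: Socs3 by 3.40 (SE 0.48, adjusted p = 1.37e-05), Pim2 by 2.01 (SE 0.21, adjusted p = 5.17e-07), Pim1 by 1.68 (SE 0.27, adjusted p = 5.72e-05), Pim3 by 0.93 (SE 0.28, adjusted p = 0.0101) and Socs1 by 0.75 (SE 0.29, adjusted p = 0.0373). Socs2 rose in both lineages at this step, by amounts that differed by -0.24 (SE 0.41, adjusted p = 0.657).

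**Figure D5:**
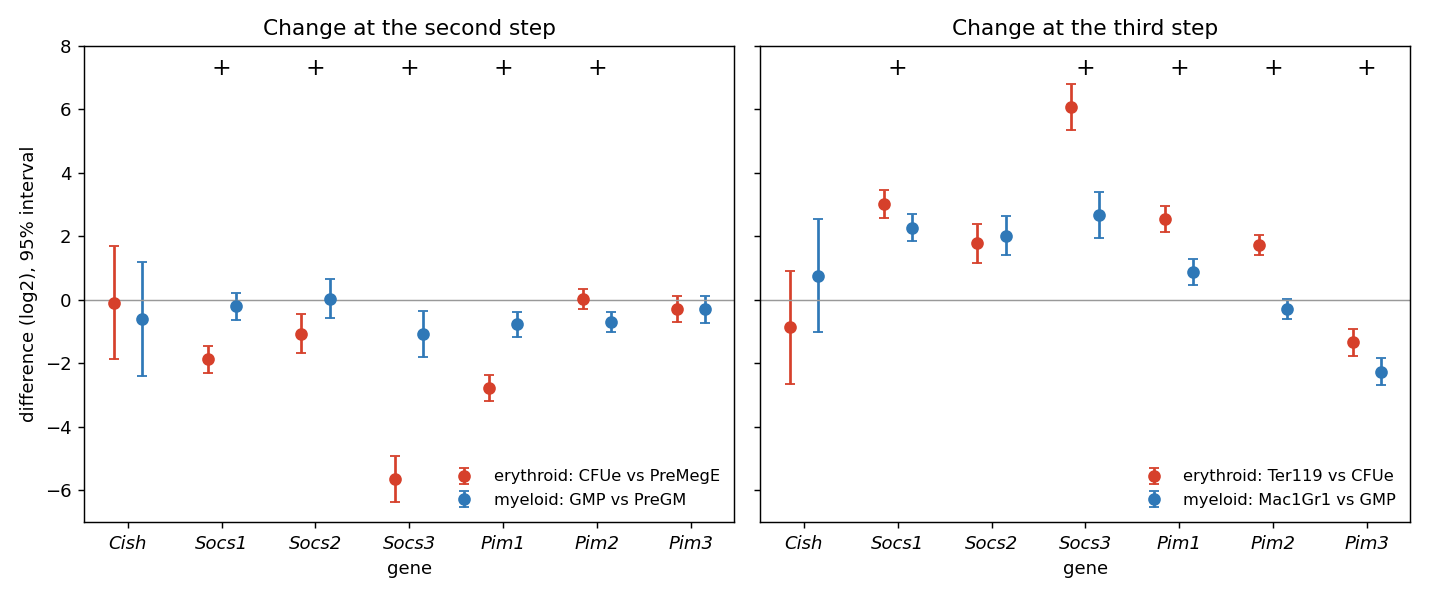
Log2 difference of each member at the second and the third step on the erythroid and on the myeloid side, with 95% intervals. Plus signs mark members whose lineages differed at an adjusted p below 0.05. Socs3, Pim1 and Socs1 fall further at the second erythroid step than at the myeloid one, and Pim2 rises at the third step on the erythroid side only.

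With the fractions ordered by level for each member, 5 of the 42 pairs of neighbours were called. Over the 21 fixed pairs of fractions, 8.64% to 59.4% of probes were called. Neighbours are the closest pairs by the same levels that are tested, so the count is low partly by construction. The range over fixed pairs is therefore not a matching background, and nothing is read from the count. For Socs3 the order ran Mac1Gr1, KLS, PreGM, Ter119, GMP, PreMegE, CFUe, with KLS above PreGM and PreMegE above CFUe called. For Socs1 it ran Mac1Gr1, Ter119, KLS, PreMegE, PreGM, GMP, CFUe, and for Pim1 PreMegE, Mac1Gr1, Ter119, KLS, PreGM, GMP, CFUe, with only GMP above CFUe called in both. CFUe was thus set apart from all other fractions for these 3 genes. For Pim3 the order ran PreGM, KLS, GMP, PreMegE, CFUe, Ter119, Mac1Gr1, with only CFUe above Ter119 called. No neighbours were called for Socs2 (KLS, Mac1Gr1, Ter119, PreMegE, GMP, PreGM, CFUe), for Pim2 (Ter119, KLS, PreGM, GMP, CFUe, PreMegE, Mac1Gr1) or for Cish, whose neighbours had adjusted p between 0.547 and 0.987.

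Across the 21 arrays, which share fractions, Socs3 and Pim1 had a Pearson r of 0.891, Socs1 and Socs2 of 0.830, and Socs1 and Socs3 of 0.812. Cish, Pim2 and Pim3 rose and fell closely with no other member, with their highest r at 0.232 (Socs2), 0.426 (Socs2) and 0.178 (Cish). Pim3 ran partly opposite to Socs1 (-0.584) and Socs2 (-0.404), and its r with the other members lay between -0.094 and 0.178. Among all genes, the 3 closest to Socs3 were Zfp608 (r = 0.980), Rgs2 (0.975) and Cdk19 (0.974), and those closest to Pim1 were Arl4c (0.940), Tuba1a (0.933) and Ccl2 (0.932). Hacd4, Slfn5 and Fam169b were closest to Socs1 (0.960 to 0.964), and Cbr2, Ms4a7 and Jchain to Socs2 (0.911 to 0.926). Rnf157, Inppl1 and Ppp3cc were closest to Pim2 (0.891 to 0.907), Zfp326 and Bod1 to Pim3 (0.979 and 0.976), and Nfkb2, Relb and Zc3h12a to Cish (0.816 to 0.906). These values describe 21 arrays of 7 fractions and carry no test.

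Among the genes upstream are the receptors. Of 15 measured receptor genes, 8 were called lower and 2 higher in CFUe than in PreMegE, where 14.7% of probes were lower and 9.96% higher, with a median difference of -1.37 against 0.12 for all probes. Epor, the erythropoietin receptor, rose 2.93-fold at this step (1.55, SE 0.25, adjusted p = 4.99e-05) after a rise of 3.66 from KLS to PreMegE, and its level reached 5.17 ± 0.15 (SD, n = 3) in CFUe. Csf2rb, the beta chain shared by the GM-CSF, interleukin 3 and interleukin 5 receptors, fell by 3.47 (SE 0.27, adjusted p = 1.63e-08). Csf3r, the G-CSF receptor, did not rise clearly over background on any CFUe array. From CFUe to Ter119, 10 receptors rose and 1 fell, where 29.2% of probes rose and 28.0% fell, among them Csf2rb by 7.64 (SE 0.27, adjusted p = 1.33e-13), while Epor was not called. Socs3 was at its lowest in CFUe, where the mean level of Epor was the highest of the 7 fractions. Ter119 was not separated from CFUe for Epor and had more Socs3. The size of that Socs3 difference is uncertain, since Socs3 was near the floor in CFUe. No relation between the 2 genes was tested.

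Between receptor and target lie the JAK kinases and the STAT factors. Of 4 JAK genes 1 was called from PreMegE to CFUe, where 24.7% of probes were. This was Jak3, the partner of the gamma chain, lower by 2.51 (SE 0.19, adjusted p = 1.11e-08). Of 7 STAT genes 2 fell, where 14.7% of probes fell, and none rose: Stat3 by 2.09 (SE 0.15, adjusted p = 8.87e-09) and Stat4, which only 1 of 3 CFUe arrays measured well above background. Stat5a and Stat5b, which carry the erythropoietin signal, were not called at this step. From CFUe to Ter119, 4 STAT genes rose, where 29.2% of probes rose, Stat3 by 2.83 (SE 0.15, adjusted p = 2.43e-11) among them, and Stat5a fell by 3.01 (SE 0.14, adjusted p = 3.57e-12). From GMP to Mac1Gr1, 6 of 7 STAT genes rose, where 29.1% of probes rose, among them Stat6 by 2.41 and Stat3 by 1.94, and Stat5a fell by 1.25.

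Of the other SOCS genes, none of Socs4, Socs5, Socs6 and Socs7 was called from PreMegE to CFUe, where 24.7% of probes were. No gene of these 4 rose at any of the 6 steps, where 2.11% to 29.2% of probes rose. Socs5 fell by 1.18 from KLS to PreMegE (adjusted p = 0.000209) and by 1.38 from KLS to PreGM (adjusted p = 8.91e-05), and Socs6 fell by 1.22 from CFUe to Ter119 (adjusted p = 4.58e-06) and by 1.83 from GMP to Mac1Gr1 (adjusted p = 2.85e-08). Of 4 genes of the ligase that the SOCS box recruits, 3 fell from CFUe to Ter119 (28.0% of probes fell) and 2 from GMP to Mac1Gr1 (27.6% of probes fell), and none rose. Rnf7, the RING subunit, fell by 1.59 to Ter119 (adjusted p = 8.97e-11) and by 1.75 to Mac1Gr1 (adjusted p = 2.41e-11), and Cul5, the cullin, fell by 1.14 (adjusted p = 1.15e-07) and by 1.73 (adjusted p = 4.90e-10). Eloc, elongin C, rose 2.01-fold to CFUe and fell 2.08-fold to Ter119.

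Of the other negative regulators, 2 of 11 fell from PreMegE to CFUe, where 14.7% of probes fell, and none rose. These were Ptprc, the CD45 phosphatase, by 2.07 (SE 0.15, adjusted p = 7.69e-09), and Pias3, an inhibitor of STAT3, by 1.15 (SE 0.18, adjusted p = 4.68e-05). Both rose to Ter119, by 3.91 and 1.30, and 6 of the 11 rose from GMP to Mac1Gr1, where 29.1% of probes rose, with Ptprc at 3.38, Pias3 at 2.83 and Ptpn6, the SHP-1 phosphatase, at 2.44. Other STAT targets also moved at these steps. Of 7, 3 fell from PreMegE to CFUe (14.7% of probes fell), including Bcl2l1, which encodes the survival factor BCL-XL (-1.39, SE 0.15, adjusted p = 6.24e-07), and Osm, which encodes oncostatin M (-1.59, SE 0.29, adjusted p = 0.000230). From CFUe to Ter119, 5 rose and 2 fell, where 29.2% of probes rose and 28.0% fell, with Bcl2l1 up by 6.80 and Myc down by 3.70. From GMP to Mac1Gr1 the counts were again 5 and 2, where 29.1% of probes rose and 27.6% fell, with Bcl6 up by 5.15 and Myc down by 4.93.

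Genes for PIM substrates changed in both directions. From PreMegE to CFUe, 2 of 7 rose and 2 fell, where 9.96% of probes rose and 14.7% fell. Eif4ebp1, a repressor of cap-dependent translation, rose by 1.50 and Cdc25a, a cell cycle phosphatase, by 1.23. Cdkn1a, the p21 inhibitor, fell by 4.75 (SE 0.41, adjusted p = 6.56e-08), and Cdkn1b, the p27 inhibitor, fell by 1.14. From GMP to Mac1Gr1, 3 rose and 4 fell, where 29.1% of probes rose and 27.6% fell, with Foxo3 up by 3.60 and Cdkn1a down by 2.61. The immediate early genes, a set of 11 rapidly induced genes such as Fos, Egr1 and Nr4a1, were called lower in CFUe than in PreMegE in 11 of 11 cases, where 14.7% of probes were. Their summed level was 9.78 to 10.03 in PreMegE and 6.52 to 8.07 in CFUe, so they moved in the same direction as Socs3, Socs1 and Pim1 at this step. From CFUe to Ter119, 2 of 11 were called higher and 1 lower, where 29.2% of probes rose and 28.0% fell. The part of the immediate early genes in the fall of the members was not tested.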

How the data were processed

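Each of the 21 arrays was deposited as Agilent Feature Extraction (version 10.7.1.1, per the file headers) output, and the intensities used are the authors' processed Cy3 signal, with background subtracted by the scanner software and no normalization between arrays. The authors' deposited series table holds log2 values of the same arrays (rank correlation with the scanner intensities 0.9998 to 1.00, column medians 6.15 to 6.23) whose centring is not stated, and it served as an alternative. Control spots and outlier spots (80 to 283 per array) were left out, spots of a probe were averaged, and log2 intensity minus the array's 75th percentile was used. Symbols came from RefSeq accessions for 26690 of 41174 probes.

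The tests took in 29532 probes, those that every array of some fraction measured well above background. A single model with 7 fraction means, and no blocking term, was fitted by limma 3.58.1 (lmFit, eBayes) in R 4.3.3 with Benjamini-Hochberg adjustment, after the script had been tested on simulated data. The median residual SD was 0.262 with 14 degrees of freedom, and precision is limited by there being 3 arrays per fraction. The 7 members and all gene lists were chosen with earlier results of these data known. Named genes were the members, at most the 3 most changed called genes of each pathway list and direction, the marker lists, and the 3 genes of highest correlation with each member, of which a few are not reported here. Kit, Ccnd1, Cd68 and Igll1 had no matched probe and were not analysed here. Alternatives were quantile and spike-in scaling (7 of 10 spike-in sequences), normexp background correction (offset 50, median pixel signals), the series table, no filter, no minimum fold, slide (9 slides, 1 scan day) or replicate as a block, only the compared fractions, another probe and each array left out. A block for sex-chromosome transcripts and leaving out CFUe 3 with PreGM 3 were added after seeing the data.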

Additional observations from a re-analysis of the deposited data

Results flagged for a closer look

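Steps that differed between the erythroid and myeloid lineages by the interaction test (limma, adjusted over all probes) are listed here as log2 differences, erythroid minus myeloid. At the second step they were -4.57 for Socs3, -2.01 for Pim1, -1.67 for Socs1, -1.11 for Socs2 (SE 0.41, adjusted p = 0.0480) and 0.71 for Pim2. At the third step they were 3.40 for Socs3, 2.01 for Pim2, 1.68 for Pim1, 0.93 for Pim3 and 0.75 for Socs1. The values of Socs3 and Pim1 at both steps, Socs1 at the second and Pim2 and Pim3 at the third passed under every alternative run. Socs2 at the second step lost its call under 21 of 31 alternatives and Socs1 at the third under 15 of 31, and both were lost without CFUe array 3 and PreGM array 3 together (-0.63 and 0.68). Pim2 at the second step lost its direction under spike-in scaling. No array stood out among 4 or more, since each fraction has 3.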

How the results depend on the processing

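The members gave 21 calls at the 6 steps, 7 between lineages, 10 between the lineages' steps and 5 between neighbouring levels, and the pathway lists 204. With single arrays left out these ranged over 19 to 21, 6 to 8, 8 to 10, 4 to 7 and 198 to 207. Counts that moved further were 11 between lineages and 25 between neighbouring levels with spike-in scaling, 13 neighbouring levels and 320 list calls with no minimum fold, 9 neighbouring levels with the sex-chromosome block and 8 without CFUe 3 and PreGM 3. Replicate numbers did not pair the arrays (21 of 63 same-number correlations over 0.1, 8 of 21 arrays closest to their own number), and the replicate block kept 21 and 7 calls and lost only the second-step difference of Socs2 (adjusted p = 0.0524). Of 38 called member results, 30 kept their call with spike-in scaling, 32 with normexp, 33 without CFUe 3 and PreGM 3, and 35 or more under each other setting run on all 38.

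Directions that turned were mostly those of Cish, which was never called in the fit reported. PreMegE against KLS was -0.044 with quantile scaling and with the series table, -0.39 with spike-in scaling and -1.31 with slide as a block, which gave -0.11 for PreMegE against PreGM. Spike-in scaling turned Cish in GMP against PreGM (0.42), Mac1Gr1 against GMP (-1.27), CFUe against GMP (-0.49) and the second-step difference (-1.02). It also turned Socs2 (-0.0086) and Pim1 (-1.15) in Mac1Gr1 against GMP, Pim1 (0.24) and Pim2 (0.33) in GMP against PreGM, and Pim2 at the second step (-0.82). The sex-chromosome block turned Cish in Ter119 against CFUe (1.38), Ter119 against Mac1Gr1 (2.62) and at the second (-0.61) and the third (0.61) step. Without CFUe 3 and PreGM 3, Cish gave 1.31 for CFUe against PreMegE, 0.54 for PreGM against KLS and -0.48 for PreMegE against PreGM. With single arrays left out, Cish ranged from -0.28 to 0.39 for PreMegE against KLS, -0.85 to 1.31 for CFUe against PreMegE, -0.76 to 0.54 for PreGM against KLS, -0.48 to 0.83 for PreMegE against PreGM and -0.25 to 1.91 at the second step. The cause was not tested. Slides that held both fractions existed for CFUe against PreMegE, Ter119 against CFUe, GMP against PreGM and PreMegE against PreGM, not for the other comparisons.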
